A study of Mus musculus with 8 samples.

Results

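The laminins and integrins are the chains of the basement membrane protein that epithelial cells rest on and the cell surface receptors that hold cells to it. All genes of the deposited feature table whose symbols are laminin alpha, beta or gamma chains (Lama, Lamb, Lamc) or integrin alpha or beta chains (Itga, Itgb) were taken, leaving out Itgbl1, which encodes no integrin chain. This gave 38 genes, 11 laminin and 27 integrin chains, of 32285 features, and the rule used names and no measured value. Each of the 8 single-cell libraries held at least 1 UMI, a counted mRNA molecule, of between 34 and 38 of them.

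A laminin is a trimer of an alpha, a beta and a gamma chain, secreted and assembled into the sheet beneath an epithelium or around vessels, muscle and glia. An integrin is a pair of an alpha and a beta chain. The alpha chain sets most of the ligand: the chains of Itga3, Itga6 and Itga7 bind laminins, those of Itga1, Itga2 and Itga11 bind collagens, those of Itga5, Itgav and Itga8 bind fibronectin, vitronectin or latent TGF-beta, and those of Itgal, Itgam and Itgax pair with the beta chain of Itgb2 on leukocytes. In the gut, laminins with the alpha chain of Lama5 and others with the chains of Lama3 and Lamb3 lie under the epithelium, where the pair of Itga6 and Itgb4 forms hemidesmosomes.

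Libraries were made from the colon of young adult male C57BL/6 mice, 2 biological replicates in each of 4 groups. Colon assembloids, in which organoids and cultured primary stromal cells grew together in Matrigel on an orbital shaker without Wnt surrogate, CHIR-99021, R-spondin 1 and noggin, gave 2 EpCAM-negative stromal and 2 epithelial libraries. Colon organoids, epithelium alone in Matrigel with those factors, and crypts freshly isolated from colon tissue gave 2 epithelial libraries each. Both cultures therefore grew inside Matrigel, an extract that itself holds laminin protein, and tissue did not, and organoids and assembloids also differed in medium. No transgene or deletion is stated for any of these groups. Stromal and epithelial libraries were not compared with each other, since their file headers name different counting software versions, 6.0.1 and 7.1.0.

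Cells with at least 500 detected genes and at most 10% mitochondrial UMIs were sorted into classes by summed marker genes, none of which is a laminin or an integrin, and UMIs were then added up per library and class. Epithelial-like cells numbered 18090 and 6430 in assembloid replicates 1 and 2, 4857 and 7602 for organoids, and 4635 and 4259 for tissue. Passing cells, 29410 and 7722 in assembloid epithelial libraries, were more than the study kept for that group, and those of tissue, 4692 and 4310, were fewer. In assembloid epithelial libraries 612 and 485 cells were fibroblast-like and 164 and 183 immune-like, while tissue libraries held 4 immune-like cells each. The stromal libraries held 7034 and 8117 fibroblast-like cells, 223 and 166 contractile-like, 21 and 65 endothelial-like, 30 and 29 glia-like, and 91 and 130 neuron-like cells. Total UMIs in passing cells lay between 36970661 and 187583982 per library. The 2 assembloid epithelial libraries differed in median UMIs per passing cell (3468 and 13260.5), and so did the organoid libraries (35219 and 6738.5). Cells that fell outside the marker limits of every class were left out, 35.9% and 8.08% of passing cells in assembloid epithelial replicates 1 and 2. In stromal replicates 1 and 2 the shares were 18.0% and 5.98%. Over all passing stromal cells, Itga3, Itga6, Itga7 and Itgb4 together stood at 93.2 and 15.6 UMIs per 1000000 in replicates 1 and 2. The source of that gap was not tested. No pair of libraries shared more than 1.07% of the smaller library's barcodes. Levels below are CPM, the UMIs of a gene per 1000000 UMIs of the class in that library after TMM scaling. Differences are log2 fold changes from edgeR's quasi-likelihood test, with Benjamini-Hochberg adjustment over all genes tested. That test gives no SE, so the SE after ± is the size of the fold change divided by the square root of the F statistic.

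The first comparison asked how the epithelium of assembloids differs from that of tissue. Assembloid epithelial-like cells had higher levels of the laminin chains Lama5 and Lamc1 and of the integrin chains Itgav, Itgb1 and Itga2, and a lower level of the collagen-binding integrin chain Itga1. Of the 37 members tested, 17 were higher and 5 lower in assembloids, and Lama1 had too few UMIs to test. Lama2, Lamc3, Itgad, Itgal, Itgax, Itgb2 and Itgb3 passed the filter on low counts only through the assembloid libraries, and Itga4 only through those of tissue. None of these would have been tested without its level there. Over all genes, 51.2% were called in this comparison, 27.1% higher and 24.1% lower. Without TMM scaling, which moved the median of all genes from 0.03 to −0.37, 14 members were higher and 7 lower. Among laminins 7 of 10 were higher and 1 lower, with a median log2 fold change of 2.45, and among integrins 10 of 27 were higher and 4 lower, with a median of 0.92. The median of all genes tested was 0.03.

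The 250 bases before the transcription start, from RefSeq on GRCm38.p6, are shown for 5 of the members that differed, 4 that were higher in assembloids and Itga1, the one with the steepest fall among members above 10 CPM. Each line runs 5′ to 3′ on the gene's strand, and capitals mark any match, on either strand, to the AP-1 motif TGANTCA, the GC box GGGCGG or the TEAD motif GGAATG.
Lama5, chr2:180225860-180226109, minus strand: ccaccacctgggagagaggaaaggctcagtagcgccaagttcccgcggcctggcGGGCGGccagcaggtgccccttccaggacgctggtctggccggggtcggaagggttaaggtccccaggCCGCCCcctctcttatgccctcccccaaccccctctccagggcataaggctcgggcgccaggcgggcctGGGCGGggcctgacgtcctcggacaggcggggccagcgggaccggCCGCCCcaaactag
Itgav, chr2:83724147-83724396, plus strand: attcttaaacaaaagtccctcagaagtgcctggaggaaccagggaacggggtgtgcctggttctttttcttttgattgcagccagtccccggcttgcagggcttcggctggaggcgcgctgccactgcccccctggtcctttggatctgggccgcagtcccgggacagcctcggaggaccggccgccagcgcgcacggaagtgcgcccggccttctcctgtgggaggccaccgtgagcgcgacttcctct
Itgb1, chr8:128685404-128685653, plus strand: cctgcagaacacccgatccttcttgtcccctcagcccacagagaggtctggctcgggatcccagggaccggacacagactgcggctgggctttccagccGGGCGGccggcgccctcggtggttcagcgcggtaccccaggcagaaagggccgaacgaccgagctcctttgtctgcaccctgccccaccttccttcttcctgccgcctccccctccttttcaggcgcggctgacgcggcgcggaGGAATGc
Itga2, chr13:114932101-114932350, minus strand: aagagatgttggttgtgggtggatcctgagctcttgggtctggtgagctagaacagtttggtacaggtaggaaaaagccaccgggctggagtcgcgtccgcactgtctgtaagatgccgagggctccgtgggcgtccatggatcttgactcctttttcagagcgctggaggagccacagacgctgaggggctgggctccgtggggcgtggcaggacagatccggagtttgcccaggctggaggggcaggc
Itga1, chr13:115101965-115102214, minus strand: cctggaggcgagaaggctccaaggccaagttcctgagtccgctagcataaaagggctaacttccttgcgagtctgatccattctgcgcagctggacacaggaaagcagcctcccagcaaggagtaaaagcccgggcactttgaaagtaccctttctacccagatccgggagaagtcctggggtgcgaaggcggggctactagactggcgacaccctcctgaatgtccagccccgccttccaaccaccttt
Lama5 held 4 GC boxes, and Itgb1 held 1 GC box and 1 TEAD motif. Itgav, Itga2 and Itga1 held none of the 3 motifs in this window. Of the 32851 windows of this length in the same table, 32.7% held a GC box, 12.6% a TEAD motif and 6.75% an AP-1 motif. No printed matches overlapped, and a match is a description of the letters only.

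Lama5 (chromosome 2, 180176373 to 180225859 on GRCm38), the alpha chain of the laminins found under most mature epithelia, stood at 30.8 and 27.8 in assembloids, against 22.9 and 31.8 for organoids and 4.83 and 5.22 for tissue. Both cultures lay above both tissue libraries and overlapped each other, and the fold change of assembloids over tissue was 2.54 ± 0.22 (adjusted p = 6.3e-05). Lamc1 (chromosome 1, 153218922 to 153332786), the gamma chain shared by most laminins, stood at 21.6 and 29.8 in assembloids, against 19.3 and 28.6 for organoids and 2.75 and 2.29 for tissue. Its fold change of assembloids over tissue was 3.35 ± 0.28 (adjusted p = 5.3e-05), and again the cultures overlapped while tissue lay below both. Lamb1 and Lamb2, the beta chains that pair with Lamc1, were not called higher. Lamb1 stood at 2.08 and 0.767 against 0.915 and 0.402 (1.10, adjusted p = 0.15), and Lamb2 was lower in assembloids, at 1.58 and 1.1 against 4.54 and 3.76 (−1.63 ± 0.34, adjusted p = 0.0047).

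Lama3, an alpha chain of epithelial laminin, stood at 17.1 and 16.6 against 7.1 and 7.3 (1.23 ± 0.28, adjusted p = 0.0067). That call was lost without TMM scaling (0.83, adjusted p = 0.056) and without tissue replicate 1 (1.19, adjusted p = 0.061) or 2 (1.23, adjusted p = 0.052). With 1 tissue library left, that library is assumed to vary like the other groups, and the fold change itself hardly moved. Lamb3, the beta chain that pairs with it, stood at 59.1 and 58.5 against 40.9 and 42.6, and its fold change of 0.49 ± 0.21 did not pass the test (adjusted p = 0.081).

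Among the integrins, Itgav (chromosome 2, 83724397 to 83806916), the alpha chain that binds vitronectin, fibronectin and latent TGF-beta, stood at 89.9 and 112 in assembloids, against 20.2 and 32.8 for organoids and 14.96 and 17.5 for tissue. Both assembloid libraries lay above all 4 others, and the fold change over tissue was 2.63 ± 0.27 (adjusted p = 0.00015). Itgb1 (chromosome 8, 128685654 to 128733200), the beta chain of most matrix-binding integrins, stood at 334 and 314 in assembloids, against 175 and 141 for organoids and 128 and 122 for tissue, a fold change over tissue of 1.37 ± 0.22 (adjusted p = 0.0013). The groups did not overlap for either gene. Of the other beta chains that pair with Itgav, Itgb3 was called higher and Itgb6, Itgb5 and Itgb8 were not called. Itgb3 could be tested only because of its level in assembloids. Itgb3 stood at 0.383 and 0.121 against 0 and 0.0709 (2.94), a call lost without TMM scaling (2.51, adjusted p = 0.055) and in DESeq2 (2.93, adjusted p = 0.145). Itgb8 stood at 0.584 and 0.383 against 1.01 and 0.969 (−1.03) and was called lower without TMM scaling (−1.45, adjusted p = 0.029). Itgb6 stood at 31.6 and 33.5 against 23.2 and 24.7 (0.44, adjusted p = 0.10), and Itgb5 at 11.4 and 14.5 against 13.5 and 16.2 (−0.19, adjusted p = 0.52).

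The collagen receptors moved in opposite directions. Itga2 (chromosome 13, 114833081 to 114932100) stood at 105 and 128 in assembloids, against 70.6 and 108 for organoids and 47.1 and 54.3 for tissue, with a fold change of assembloids over tissue of 1.2 ± 0.25 (adjusted p = 0.0048) that was not called without tissue replicate 1 (1.08, adjusted p = 0.073). Itga1 (chromosome 13, 114953096 to 115101964) stood at 3.52 and 2.81 in assembloids, against 2.76 and 2.77 for organoids and 19.4 and 15.4 for tissue, a fold change of −2.45 ± 0.23 (adjusted p = 9.4e-05). The 2 genes lie side by side, with tissue lowest for Itga2 and highest for Itga1. The fibronectin receptor chain Itga5 was also lower in assembloids, at 2.69 and 3.34 against 7.91 and 8.23 (−1.42 ± 0.34, adjusted p = 0.0089).

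The hemidesmosome pair and the laminin receptor chain Itga3 showed no call against tissue. Itga6 stood at 140 and 162 in assembloids, against 166 and 191 for organoids and 177 and 169 for tissue, and its fold change over tissue was −0.20 ± 0.21 (adjusted p = 0.46). Itgb4 stood at 79.6 and 73.1 against 60.8 and 54.1 (0.41, adjusted p = 0.16), and Itga3 at 44.2 and 36.2 against 29.0 and 33.3, without a call. Itga7, the other laminin receptor chain, stood at 6.24 and 6.43 against 2.56 and 3.17 (1.15, adjusted p = 0.013), a call lost without TMM scaling (0.75, adjusted p = 0.11). The plot of epithelial levels by library shows Lama5 and Lamc1 with both cultures high, Itgav and Itgb1 with assembloids high, and Itga1 with tissue high.

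**Figure D1:**
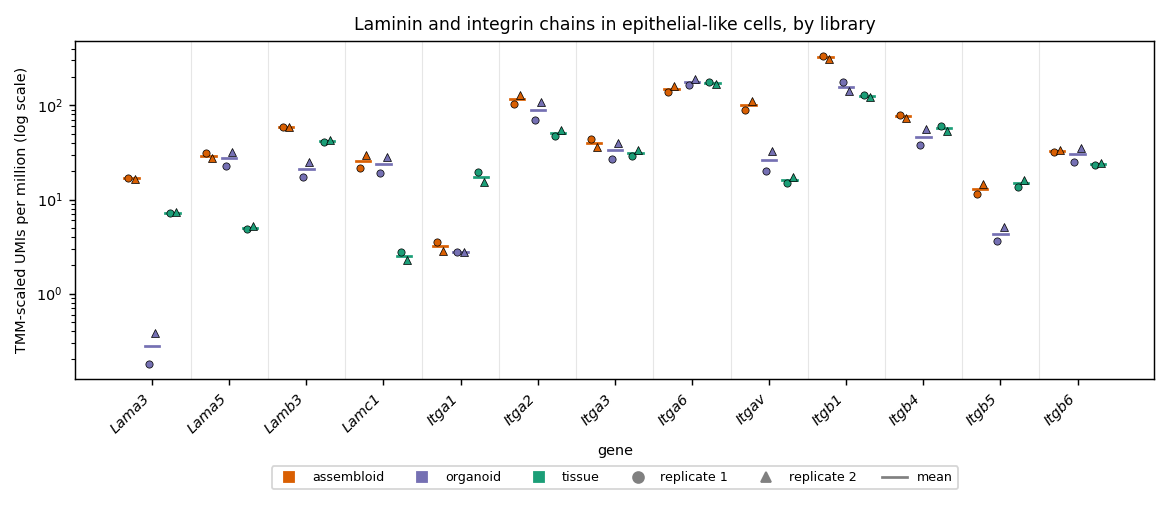
Levels of 13 laminin and integrin chains in epithelial-like cells of the 6 epithelial libraries (log axis, CPM after TMM scaling). Points are single libraries, lines are group means, and the chains shown are ones that had a mean of at least 10 in at least 1 group. Lamc1 lay at 2.75 and 2.29 in tissue and between 19.3 and 29.8 in both cultures, and Itga1 lay at 19.4 and 15.4 in tissue and between 2.76 and 3.52 in both cultures.

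The other 10 members higher in assembloids stood at low levels in epithelial-like cells. Lama4 stood at 8.72 and 3.55 against 1.37 and 0.804 in tissue (2.48 ± 0.48, adjusted p = 0.003), and Itga11, a collagen receptor chain of fibroblasts, at 4.99 and 6.19 against 0.384 and 0.402 (3.83 ± 0.34). For several of them other cell types of the same libraries held far more mRNA, though not for Itga7, at 51.2% and 85.4% of its fibroblast-like level before TMM scaling, nor for Lamc3, which was higher in epithelial-like than in fibroblast-like cells. On that scale, the epithelial-like level of Lama4 was 6.13% and 2.53% of that in fibroblast-like cells, that of Itga11 7.63% and 11.5%, that of Itga9 1.82% and 0.954% of that in immune-like cells, and that of Itgb2 0.186% and 0.126%. Summed fibroblast markers in epithelial-like assembloid cells were at 0.371% and 0.173% of their fibroblast-like level, and immune markers at 0.191% and 0.152% of their immune-like level. Their summed level per 10000 UMIs of epithelial-like cells was 0.281 to 0.584 for the 12 fibroblast markers in assembloids, 0.0513 to 0.0637 in tissue and 0.00597 to 0.00904 in organoids, with 0, 7 or 8, and 5 or 6 of the markers at 0. For the 15 immune markers it was 0.345 to 0.347, 0.0456 to 0.0481 and 0.0434 to 0.0809. These marker sums cannot measure foreign RNA, since the gate held both lists under 5 UMIs per 10000 in each epithelial-like cell. The part of free RNA or mixed droplets in the low levels of these members was not tested. Using only epithelial-like cells with no fibroblast or immune marker UMI, 14 members were higher and 5 lower of 31 tested, where 48.0% of all genes were called.

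A list of genes that build, bind or anchor to the same matrix was counted beside them. It includes Sparc, Postn and Cdh1, which are also markers of the gate, so the sorting itself affects their levels. Of 60 such partners tested 23 were higher in assembloids and 7 lower, a share called close to the 51.2% of all genes, among them 9 of 16 other basement membrane genes higher and 1 lower (median 1.21), and 7 of 10 further integrin ligands higher and 1 lower. For the hemidesmosome list 2 of 9 were higher and 1 lower, and for the adhesion complex list 5 of 25 and 4. The steepest falls were Ntn4, a laminin-like netrin, at 0.475 and 0.242 against 5.16 and 4.92 (−3.80), Thbs1, a thrombospondin that binds integrins, at 4.51 and 7.21 against 40.2 and 49.5 (−2.94), and Rsu1, which binds the adhesion adaptor PINCH, at 11.2 and 15.1 against 28.9 and 28.7 (−1.13). The collagen-associated gene Sparc, itself one of the fibroblast markers of the gate, stood at 14.2 and 4.98 in assembloids with 3 and 0 UMIs in tissue.

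Organoids shared only part of this pattern with assembloids. These comparisons use the same libraries as the first and are not independent of it. Against tissue, 4 of 37 members were higher, Lama5, Lamc1 and Itga2 among them, and 10 lower, where 48.9% of all genes were called, 25.1% higher and 23.8% lower. Without TMM scaling 2 were higher and 11 lower. The median log2 fold change of the members was −0.69 and that of all genes 0.06. Lama5 and Lamc1 were higher by 2.44 ± 0.22 (adjusted p = 6.3e-05) and 3.24 ± 0.28 (adjusted p = 5.1e-05). Itga2 (0.82 ± 0.25, adjusted p = 0.025) lost it without TMM scaling (0.63, adjusted p = 0.11), without tissue replicate 1 (0.72, adjusted p = 0.21) or 2 (0.93, adjusted p = 0.11), and without organoid replicate 2 (0.50, adjusted p = 0.083).

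Several chains were lower in organoids than in either other group. Lama3 stood at 0.181 and 0.381 in organoids against 7.1 and 7.3 in tissue (−4.73 ± 0.34, adjusted p = 2.1e-05) and 17.1 and 16.6 in assembloids (−5.96 ± 0.35, adjusted p = 2.3e-05). In tissue Lama3 was highest in colonocyte-like cells, which numbered 485 and 513 there and 7 and 3 in organoids. The part of cell composition in these differences was not tested. Lamb3 stood at 17.1 and 24.8 in organoids, lower than in tissue (−1.0 ± 0.21, adjusted p = 0.005) and in assembloids (−1.49 ± 0.22, adjusted p = 0.00075). Itgb5 stood at 3.60 and 5.09 (−1.77 ± 0.25 against tissue, adjusted p = 0.00056), Itga5 at 0.664 and 1.34 (−3.02 ± 0.37, adjusted p = 0.00028), and Itga7, a laminin receptor chain best known from muscle, at 0.217 and 0.351 against 2.56 and 3.17 in tissue and 6.24 and 6.43 in assembloids.

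Directly between the cultures, 24 of 37 members were lower in organoids than in assembloids and 1, Lamb2, was higher, where 53.7% of all genes were called, 25.0% higher and 28.7% lower. The members named above that passed the filter on low counts only through assembloids are among these 37. The median was −1.60 for the members and −0.01 for all genes. Itgav (−1.93 ± 0.27, adjusted p = 0.0006) and Itgb1 (−1.03 ± 0.22, adjusted p = 0.0045) were lower in organoids. Lama5 (−0.10 ± 0.20, adjusted p = 0.70), Lamc1 (−0.10 ± 0.25, adjusted p = 0.74) and Itga2 (−0.38, adjusted p = 0.23) were not called. Lamb2 stood at 2.92 and 4.69 in organoids and 1.58 and 1.1 in assembloids (1.5, adjusted p = 0.006). Set against tissue, 16 of 60 partners had higher and 12 lower levels in organoids. Col4a1 stood at 31.6 and 39.5 against 0.677 and 0.615 (5.78) and Col4a2 at 29.0 and 40.9 against 0.897 and 0.378 (5.73), the paired chains of the main basement membrane collagen. Against assembloids 16 partners were higher in organoids and 23 lower. Bcam, a receptor for the Lama5 chain, stood at 11.0 and 10.0 in organoids and 3.51 and 1.69 in assembloids (2.02), and Frem2, a basement membrane protein gene, at 0.030 and 0.020 against 4.47 and 2.34.

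The cells left in the assembloid epithelial libraries allowed epithelial-like and fibroblast-like cells to be set side by side within the same libraries. The epithelial-like cells carried Lama3, Lamb3 and Lama5, and the fibroblast-like cells Lama1, Lama2, Lama4, Lamb1, Lamb2 and Lamc1. Of 34 members tested 10 were higher in epithelial-like cells and 18 lower, where 60.1% of all genes were called, 30.9% higher and 29.2% lower. The median was −1.27 for the members and 0.10 for all genes. Lama1, Lama2, Lamb1, Lamb2, Itga2b, Itgb3 and Itgb8 passed the filter on low counts only through fibroblast-like cells. Lama3 passed it only through epithelial-like cells. None of these would have been tested without its level there. The fibroblast-like cells of these libraries also carried some epithelial marker RNA, 12.3 and 11.1 UMIs per 10000 against 141 and 167 in epithelial-like cells. Of the partners 10 of 58 were higher in epithelial-like cells and 40 lower, and none of the 14 other basement membrane genes was higher while 13 were lower. These counts include Sparc, Postn and Cdh1, markers of the gate whose direction here was set by the sorting.

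For laminins, Lamb3 stood at 54.7 and 55.0 in epithelial-like and 6.74 and 4.24 in fibroblast-like cells (3.37 ± 0.30, adjusted p = 6.3e-05). Lama3 stood at 15.8 and 15.6 against 6.74 and 0.509 (2.46 ± 0.65, adjusted p = 0.013), with a wide gap between the 2 fibroblast-like values. In the other direction Lamb1 stood at 1.93 and 0.722 against 176 and 221 (−7.32 ± 0.44, adjusted p = 1.1e-05), Lama4, a chain of vessel and mesenchymal laminins, at 8.07 and 3.34 against 118 and 130 (−4.57 ± 0.34, adjusted p = 2.8e-05), and Lamc1 at 20.02 and 28.02 against 102 and 97.5 (−2.06 ± 0.19, adjusted p = 6.8e-05). Lama5 stood at 28.5 and 26.2 in epithelial-like and 15.4 and 11.7 in fibroblast-like cells (1.03, adjusted p = 0.0037). Lama1, at 22.6 and 18.99 in fibroblast-like cells, and Lama2, at 37.05 and 70.4, stood under 0.5 in epithelial-like cells, and Lamb2 stood at 1.46 and 1.03 against 18.8 and 18.3 (−3.91, adjusted p = 6.2e-05). The levels of Lamc1 therefore split by class in the same libraries in which its epithelial-like level exceeded that of tissue.

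For integrins, Itga6 stood at 130 and 152 in epithelial-like and 16.8 and 9.66 in fibroblast-like cells (3.44 ± 0.29, adjusted p = 5.2e-05), Itgb4 at 73.7 and 68.8 against 7.94 and 5.26 (3.46 ± 0.26, adjusted p = 2.8e-05), and Itga2 at 96.8 and 121 against 27.2 and 14.2 (2.43 ± 0.29, adjusted p = 0.00029). Itgb6 stood at 29.3 and 31.5 against 15.6 and 3.39 (1.97 ± 0.52, adjusted p = 0.013), a call lost without the library term (1.73, adjusted p = 0.052). Fibroblast-like cells had more Itga5, at 81.3 and 67.6 against 2.49 and 3.14 (−4.72 ± 0.22, adjusted p = 5.4e-06), and more Itgb5, at 77.7 and 88.7 against 10.6 and 13.6 (−2.79 ± 0.16, adjusted p = 9.9e-06). Itga11 stood at 54.4 and 49.7 in fibroblast-like cells, and Itga1 at 21.4 and 32.7 against 3.26 and 2.65. Itga3 was higher in epithelial-like cells, at 40.9 and 34.1 against 7.7 and 7.63 (2.27, adjusted p = 0.00014), and Itgb3, a partner of Itgav, stood at 19.2 and 21.7 in fibroblast-like cells against 0.355 and 0.114. The 2 chains widely shared among tissues differed less, Itgb1 at 309 and 295 against 743 and 505 (−1.02 ± 0.16, adjusted p = 0.0011) and Itgav at 83.3 and 105 against 150 and 165 (−0.75 ± 0.14, adjusted p = 0.0029). Fermt1, the epithelial kindlin that activates integrins, stood at 57.1 and 68.7 against 2.65 and 5.09 (4.06), and Tnc, an integrin ligand of mesenchyme, at 6.27 and 1.43 against 1130 and 818 (−8.29).

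Immune-like cells of the same libraries held more Itgam, Itgb2, Itgax and Itgal, chains of leukocyte integrins, than epithelial-like cells did. Of 34 members 12 were higher than in epithelial-like cells and 11 lower, where 51.0% of all genes were called, 23.8% higher and 27.2% lower. Itga4, Itga8, Itgae, Itgal, Itgam, Itgax, Itgb2 and Itgb7 passed the filter on low counts only through immune-like cells. None of these would have been tested without its level there. The member median was 0.12 and that of all genes −0.15. Itgam stood at 354 and 341 against 0.989 and 0.864 (8.55 ± 0.21, adjusted p = 1.0e-06), Itgb2 at 193 and 122 against 0.431 and 0.161 (9.08), and Itgax at 74.3 and 47.8 (7.99). Itgal stood at 21.6 and 31.1 and Itga4, a receptor for Vcam1 and fibronectin, at 31.2 and 33.0. Itga9, whose chain binds tenascin C and osteopontin, stood at 273 and 343 in immune-like cells, 5.95 and 3.46 in epithelial-like and 14.4 and 16.8 in fibroblast-like cells (6.06 ± 0.31 against epithelial-like, adjusted p = 6.7e-06). The leukocyte chains Itgad and Itgb2l had no UMI in either immune-like sum, and Itgae stood at 2.4 and 2.22 there. Itga5 stood at 33.6 and 35.2 (3.61, adjusted p = 1.7e-05), Itgb5 at 38.4 and 53.7 (1.93, adjusted p = 8.7e-05), and Itgav at 141 and 148 (0.62, adjusted p = 0.01), the last not called with no filter on low counts (0.37, adjusted p = 0.11). Itgb1, at 415 and 307, was not called (0.23, adjusted p = 0.27), while Itga6 was lower than in epithelial-like cells, at 35.96 and 53.0 (−1.63, adjusted p = 0.0021). Of the laminins, Lamc1 was higher in immune-like cells, at 79.1 and 76.0 (1.69 ± 0.20, adjusted p = 0.00031), and 4 were lower. Of the partners, 21 were higher and 19 lower.

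**Figure D2:**
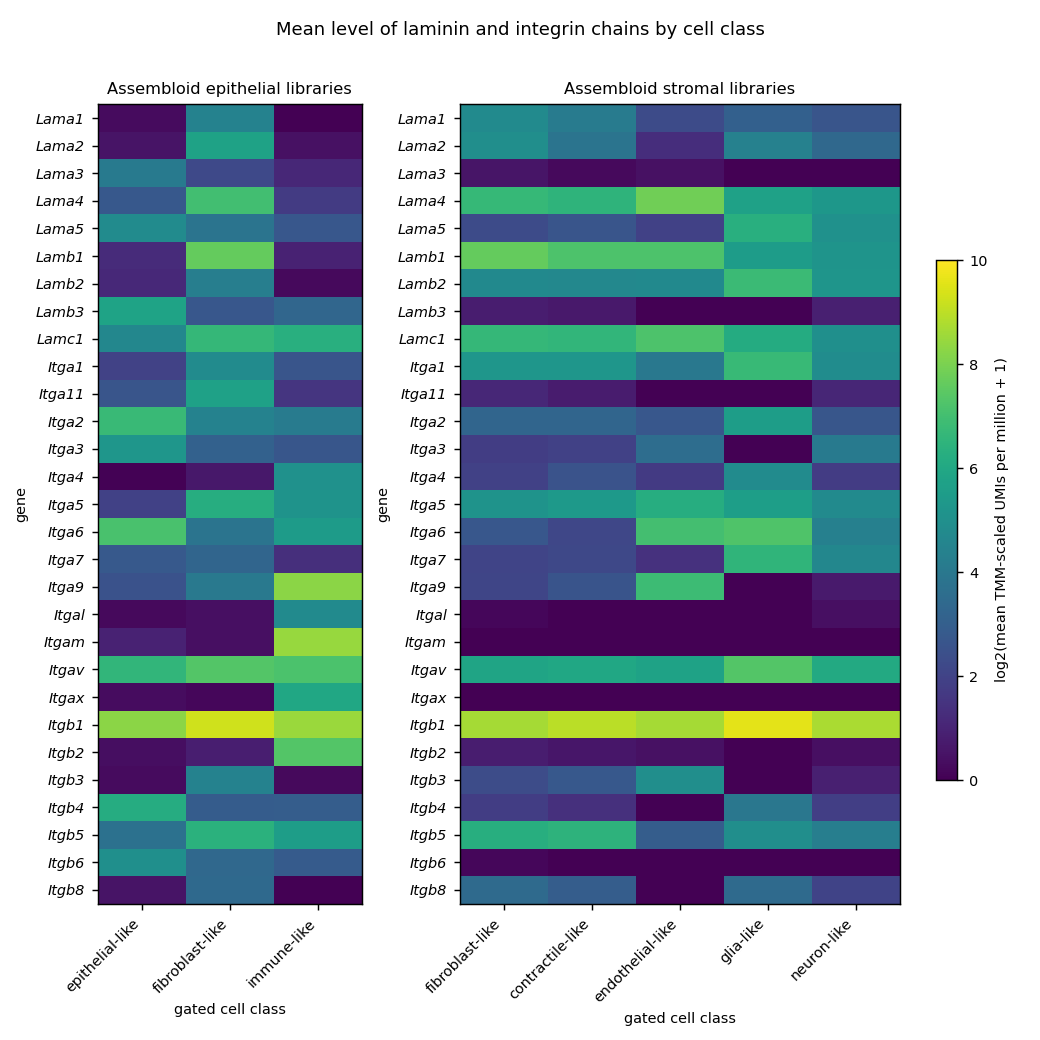
Mean level of 29 laminin and integrin chains per cell class, as log2 of CPM after TMM scaling plus 1, averaged over 2 libraries. The left panel holds the epithelial libraries of assembloids and the right panel the stromal libraries, and colours are not comparable between panels. In the left panel Itgam, Itgb2 and Itgax are highest in immune-like cells, Lamb1 and Itga5 in fibroblast-like cells, and Lamb3, Itga6 and Itgb4 in epithelial-like cells.

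In the stromal libraries, fibroblast-like cells carried Lamb1 at 195 and 198, Lama4 at 98.6 and 109, Lamc1 at 91.4 and 108, and smaller amounts of Lama1 (25.9 and 26.9), Lama2 (22.9 and 37.1) and Lamb2 (26.2 and 26.2). Their integrins were Itgb1 at 399 and 408, Itgb5 at 76.7 and 76.6, Itgav at 57.3 and 54.9, Itga1 at 43.4 and 31.6 and Itga5 at 35.1 and 33.6. Contractile-like cells, which also scored 127 and 137 fibroblast marker UMIs per 10000, differed little from them. Of 20 members 2 were lower and none higher in edgeR, where 5.73% of all genes were called, 2.04% higher and 3.69% lower. Lama2, the alpha chain of muscle laminin, stood at 13.2 and 13.8 (−1.10 ± 0.19, adjusted p = 0.002), and Lama1 at 17.3 and 16.1 (−0.66 ± 0.18, adjusted p = 0.038). Itgb1, at 498 and 500 (0.30, adjusted p = 0.24), Itgb5, at 88.1 and 88.8, and Lamb1, at 148 and 143 (−0.43, adjusted p = 0.13), were not called. The call of Lama2 was lost without the library term (−1.16, adjusted p = 0.083), and that of Lama1 without it (adjusted p = 0.23), without TMM scaling (adjusted p = 0.085) and in DESeq2 (adjusted p = 0.31). The median was 0.06 for the members and −0.06 for all genes. Of 49 partners 5 were higher and 3 lower, with Vcl, which ties adhesions to actin, at 95.6 and 92.0 against 49.4 and 50.7 (0.91) and the collagen Col15a1 at 37.6 and 39.5 against 84.3 and 102 (−1.27).

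Endothelial-like cells had 7 members higher and 5 lower than fibroblast-like cells, of 20 tested, where 36.1% of all genes were called, 16.3% higher and 19.8% lower. The member median was −0.24 and that of all genes −0.11. They were few, so that 1 UMI came to 3.39 and 0.717 CPM in the 2 sums. Itga9 and Itgb3 passed the filter on low counts only through endothelial-like cells, so neither would have been tested without a high level there. Itga3 passed it only through endothelial-like and neuron-like cells, and Itga6 only with endothelial-like, glia-like or neuron-like cells. Itga9 stood at 104 and 123 against 3.48 and 3.08 (5.13 ± 0.26, adjusted p = 3.9e-10) and Itga6 at 124 and 133 against 8.05 and 2.91 (4.85 ± 0.32, adjusted p = 4.5e-09). Lama4, the main alpha chain of vessel laminin, stood at 234 and 225 (1.14 ± 0.15, adjusted p = 1.7e-05), Itga5 at 66.8 and 80.7 (1.23 ± 0.24, adjusted p = 0.00052), Itgb3 at 36.7 and 22.2 against 4.22 and 3.67 (2.77 ± 0.40, adjusted p = 4.4e-05), and Lamc1 at 120 and 170 (0.60 ± 0.16, adjusted p = 0.0071). Lower were Itgb5, at 6.68 and 6.67 (−3.51 ± 0.30, adjusted p = 9.0e-08), and Lama1, at 3.34 and 4.44 (−2.62 ± 0.42, adjusted p = 9.7e-05). Itga3 stood at 13.4 and 8.15 against 4 and 0.968 (2.43, adjusted p = 0.0065), a call lost without the library term (1.92, adjusted p = 0.11), and Itga1 was lower, at 20.04 and 9.63 (−1.55, adjusted p = 0.00077). Itgb1, at 364 and 428, Lamb1, at 147 and 143, and Itgav, at 70.1 and 37.8, were not called. Itgb8, an activator of latent TGF-beta, had no UMI in either endothelial-like sum and stood at 10.6 and 9.62 in fibroblast-like cells. Of 49 partners 14 were higher and 19 lower, among them the adhesion adaptor gene Pxn at 76.8 and 85.9 against 16.7 and 15.2 (2.44) and Tgfb1 at 261 and 292 against 68.0 and 49.3 (2.31).

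Glia-like cells had 9 members higher and 3 lower than fibroblast-like cells, of 20, where 21.1% of all genes were called, 9.73% higher and 11.3% lower. Itga4 passed the filter on low counts only through glia-like cells, and Lama5 and Itga7 only through glia-like and neuron-like cells. Itga6 passed it only with endothelial-like, glia-like or neuron-like cells. The member median was 0.20 and that of all genes −0.19. Only 30 and 29 cells made these sums, 1 UMI came to 5.14 and 5.13 CPM, and the cells carried 71.3 and 71.9 fibroblast marker UMIs per 10000 beside 25.2 and 27.6 glia marker UMIs, with 3 and 2 of the 10 glia markers at 0. The effect of that admixture on the values was not tested. Lama5 stood at 86.4 and 72.2 against 4.96 and 2.83 in fibroblast-like cells (4.37 ± 0.40, adjusted p = 3.7e-07), Lamb2 at 142 and 81.8 against 26.2 and 26.2 (2.08 ± 0.29, adjusted p = 3.3e-05), and Lamb1 was lower, at 55.9 and 33.7 (−2.14 ± 0.32, adjusted p = 8.2e-05). The laminin receptor chains Itga6, at 122 and 178 (4.90 ± 0.48, adjusted p = 7.7e-07), and Itga7, at 127 and 57.7 against 4.06 and 2.24 (4.87 ± 0.42, adjusted p = 1.7e-07), were higher, as were Itga2, at 30.5 and 62.6 against 9.42 and 7.66 (2.47, adjusted p = 0.0025), Itga4, at 40.7 and 14.4 against 2.41 and 3.28 (3.27, adjusted p = 0.0022), Itga1, at 132 and 81.8 (1.51 ± 0.28, adjusted p = 0.00059), Itgav, at 173 and 144 (1.49 ± 0.25, adjusted p = 0.00025), and Itgb1, at 864 and 688 (0.94 ± 0.15, adjusted p = 0.00017). Itgb5 was lower, at 40.7 and 19.2 (−1.37, adjusted p = 0.008), and so was Lama4, at 45.7 and 57.7 (−1.0, adjusted p = 0.021), whose call was lost without TMM scaling (−0.84, adjusted p = 0.058). Lamc1, at 76.2 and 62.6, and Itga5, at 81.3 and 14.4, were not called, and Itga3, Itga9 and Itgb3 had no UMI in either sum. Of the partners 19 were higher and 10 lower, with Ltbp1, which stores latent TGF-beta, at 351 and 395 against 12.4 and 17.6 (4.64) and the heparan sulfate proteoglycan Agrn at 280 and 135 against 18.99 and 26.1 (3.20).

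Neuron-like cells had 4 members higher and 9 lower of 20, where 46.5% of all genes were called, 24.7% higher and 21.8% lower. The member median was −0.58 and that of all genes 0.01. None of the 4 members called higher would have passed the filter on low counts through fibroblast-like cells. Lama5 and Itga7 passed it only through glia-like and neuron-like cells, and Itga3 only through endothelial-like and neuron-like cells. Itga6 passed it only with endothelial-like, glia-like or neuron-like cells. Lama5 stood at 38.3 and 26.7 (3.08 ± 0.27, adjusted p = 5.6e-08), Itga7 at 26.9 and 20.98 (2.97), Itga3 at 20.4 and 12.7 against 4 and 0.968 (2.94) and Itga6 at 26.9 and 12.1 (1.87). Lamb1, at 46.5 and 23.5 (−2.53), Lamc1, at 31.8 and 28.6 (−1.73), Lama4, at 44.9 and 31.2 (−1.47), and Itgb5, at 20.4 and 15.9 (−2.10), were lower, as were Lama1, at 7.34 and 3.18 (−2.39), and Lama2, at 8.16 and 10.8 (−1.65). Lamb2, at 40.8 and 31.8 (0.45, adjusted p = 0.066), Itgb1, at 457 and 398, and Itgav, at 81.6 and 50.9, were not called. Lamb2 was called higher without TMM scaling (0.58, adjusted p = 0.019). Of the partners 12 were higher and 17 lower. The calls of the 4 stromal classes share the same fibroblast-like cells.

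Telocyte-like and trophocyte-like cells are the fibroblasts that lie along the epithelium and below the crypt base, and were taken from the fibroblast-like cells by their own markers, 353 and 396 and 898 and 1245 cells. Within 20% of the telocyte marker cut, on either side, lay 765 and 942 passing stromal cells, more than the class held, so its border is not sharp. Telocyte-like cells had more of the laminin chains Lama1, Lama5, Lamb1 and Lamc1 and of the integrin chain Itga4, and less Lamb2 and Itgb5. Of 25 members tested 9 were higher and 3 lower, where 32.6% of all genes were called, 16.0% higher and 16.6% lower. The median was 0.24 for the members and −0.03 for all genes. Without TMM scaling 12 were higher and 3 lower. Telocyte-like cells were deeper, with median UMIs of 18108 and 18664 against 14740 and 13035, and scored higher for cycling genes, 21.2 and 22.9 against 11.9 and 10.3 UMIs per 10000, and the part of either in these differences was not tested.

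Lama1 (chromosome 17, 67697259 to 67822647), an alpha chain of embryonic and organizing basement membranes, stood at 69.2 and 61.8 in telocyte-like cells, 13.1 and 11.4 in trophocyte-like cells and 24.2 and 25.6 in the other fibroblasts. The telocyte-like level exceeded the trophocyte-like level by 2.42 ± 0.12 (adjusted p = 2.3e-10), with both telocyte-like libraries above all others. Lama5 stood at 17.5 and 9.99 against 3.35 and 2.33 (2.25 ± 0.23, adjusted p = 8.9e-07), Lamc1 at 148 and 151 against 72.4 and 78.4 (0.99 ± 0.11, adjusted p = 2.2e-06), and Lamb1 at 297 and 264 against 173 and 172 (0.70 ± 0.13, adjusted p = 0.00059). The beta and gamma chains of Lamb1 and Lamc1 can form a trimer with either of these alpha chains. Lamb2 went the other way, at 20.6 and 19.99 against 31.3 and 28.2 (−0.55 ± 0.13, adjusted p = 0.0038), a call lost without the library term (adjusted p = 0.063) and under stricter gates (−0.64, adjusted p = 0.12). Lama2 stood at 18.9 and 23.2 against 21.7 and 33.0 (−0.37, adjusted p = 0.054) and Lama4 at 105 and 118 against 95.2 and 93.6 (0.24, adjusted p = 0.098), which was called without TMM scaling (0.32, adjusted p = 0.039).

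Itga4 stood at 12.9 and 19.99 in telocyte-like cells and 0.837 and 0.758 in trophocyte-like cells, a fold change of 4.36 ± 0.32 (adjusted p = 2.0e-08), with 1.82 and 2.12 in the other fibroblasts. Itga2 stood at 22.03 and 16.7 against 7.88 and 6.12 (1.47 ± 0.20, adjusted p = 3.1e-05), Itga6 at 15.7 and 11.1 against 5.58 and 1.46 (2.02 ± 0.40, adjusted p = 0.00091), and Itgb3 at 7.91 and 9.12 against 3.63 and 2.86 (1.41 ± 0.27, adjusted p = 0.00072), whose call was lost under stricter gates (1.22, adjusted p = 0.24). Itgb5 was lower, at 65.7 and 52.6 against 96.8 and 86.6 (−0.64 ± 0.11, adjusted p = 0.00024), and also lost its call there (−0.41, adjusted p = 0.075). Itga1, at 56.1 and 32.5 against 37.1 and 29.8 (0.37 ± 0.13, adjusted p = 0.037), lost its call in DESeq2 (0.32, adjusted p = 0.21) and without the library term (0.40, adjusted p = 0.36). The main receptor chains Itgb1, at 474 and 473 against 393 and 379 (0.29, adjusted p = 0.069), and Itgav, at 77.3 and 63.2 against 57.9 and 54.8 (0.31, adjusted p = 0.061), were not called in the edgeR fit. Itgb1 was called in DESeq2 (0.25, adjusted p = 0.0080) and without TMM scaling (0.38, adjusted p = 0.015), and Itgav without TMM scaling (0.39, adjusted p = 0.024). Itga5, at 39.8 and 34.6 against 36.7 and 32.8, and Itgb8, at 13.8 and 15.2 against 17.9 and 12.7, overlapped between the classes. Of 56 partners 12 were higher and 16 lower. The basement membrane collagen gene Col18a1 stood at 556 and 528 against 181 and 121 (1.88), and Spp1, an integrin ligand, at 89.7 and 24.1 against 3256 and 916.5 (−5.23).

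**Figure D3:**
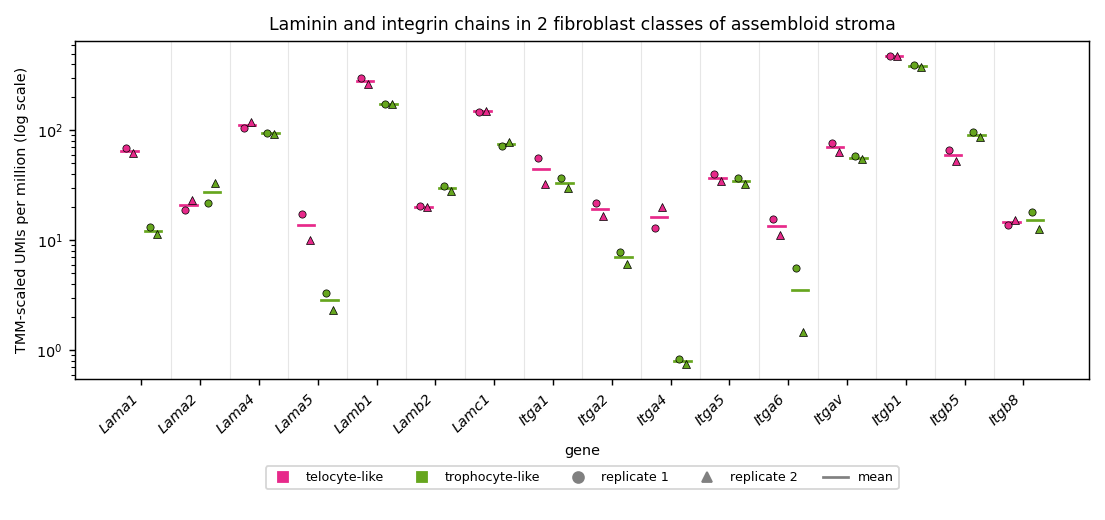
Levels of 16 laminin and integrin chains in telocyte-like and trophocyte-like cells of the 2 stromal libraries (log axis, CPM after TMM scaling). Each point is 1 library and lines are means. Lama1 lay at 69.2 and 61.8 in telocyte-like and 13.1 and 11.4 in trophocyte-like cells, while Itgb5 lay at 65.7 and 52.6 and at 96.8 and 86.6.

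Within the epithelium, colonocyte-like, goblet-like and cycling cells were compared in tissue and in assembloids, 485 and 513, 524 and 513, and 234 and 142 cells in tissue and 930 and 633, 178 and 213, and 3591 and 981 in assembloids. Organoids held at most 7 colonocyte-like and 6 goblet-like cells and were left out. Within 20% of the cycling marker cut, on either side, lay 3975 and 433 passing cells of assembloids and 172 and 190 of tissue. In tissue, colonocyte-like cells had 8 members higher and 6 lower of 29 than goblet-like cells, where 50.1% of all genes were called (24.3% higher and 25.8% lower), and 7 higher and 7 lower than cycling cells, where 52.1% were called (26.1% each way). Without TMM scaling the counts against goblet-like cells were 6 higher and 7 lower. In assembloids the counts were 6 higher and 2 lower against goblet-like cells (28.9% of all genes called, 15.7% higher and 13.2% lower) and 12 higher and 8 lower against cycling cells (57.5%, 22.4% higher and 35.1% lower). Against cycling cells the median of all genes moved with scaling, from −0.07 to −0.64 in tissue and from −0.32 to −0.72 in assembloids without TMM factors, where members counted 4 higher and 9 lower, and 7 higher and 12 lower. The member medians against goblet-like cells were −0.15 in tissue and 0.18 in assembloids, and those against cycling cells were −0.27 in tissue and −0.18 in assembloids.

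The laminin chains Lama3 and Lamb3 were highest in colonocyte-like cells. In tissue Lama3 stood at 33.9 and 18.9 in colonocyte-like, 0.745 and 1.48 in goblet-like and 0.505 and 1.53 in cycling cells, a difference from goblet-like cells of 4.63 ± 0.49 (adjusted p = 1.4e-06). In assembloids it stood at 61.6 and 47.9, 11.6 and 15.5, and 7.46 and 8.78, a difference of 1.93 ± 0.40 (adjusted p = 0.0017). Lamb3 stood at 90.6 and 83.0, 14.7 and 19.1, and 36.0 and 39.3 in tissue and at 139 and 125, 51.4 and 57.8, and 35.1 and 33.7 in assembloids, with goblet-like below cycling cells in tissue and above them in assembloids, an order whose difference was not tested.

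Lamc1 was lowest in the colonocyte-like cells of tissue, at 0.667 and 0.986 against 2.14 and 1.71 in goblet-like (−1.24) and 4.55 and 3.82 in cycling cells (−2.36). The call against goblet-like cells was lost without tissue replicate 1 (−0.79, adjusted p = 0.37) and without the library term (adjusted p = 0.065). In assembloids it stood at 13.9 and 20.9, 18.5 and 22.8, and 16.6 and 23.1, all above tissue. Colonocyte-like cells there were not called against either other class, but without TMM scaling they were lower than cycling cells (−0.61, adjusted p = 0.0011, against −0.19 with it), and goblet-like and cycling cells were not tested against each other. Lama5 stood in assembloids at 41.0 and 30.7 in colonocyte-like, 8.22 and 14.9 in goblet-like and 25.1 and 25.3 in cycling cells, and in tissue at 3.67 and 7.03, 1.86 and 3.53, and 6.40 and 5.35. Its difference between colonocyte-like and goblet-like cells was 1.44 in assembloids and 1.00 in tissue (adjusted p = 0.028), the latter lost without the library term (adjusted p = 0.052), without TMM scaling (0.78, adjusted p = 0.085) or without tissue replicate 1 (1.00, adjusted p = 0.078) or 2 (1.03, adjusted p = 0.13).

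Itga2 and Itga6 had the opposite pattern to Lama3 in tissue. Itga2 stood at 10.6 and 19.97 in colonocyte-like, 83.8 and 81.8 in goblet-like and 62.6 and 79.8 in cycling cells of tissue (−2.48 ± 0.16 against goblet-like and −2.24 ± 0.18 against cycling). In assembloids it stood at 59.7 and 75.8, 158 and 161, and 82.5 and 87.9. Itga6 stood at 93.4 and 106, 151 and 159, and 253 and 233 in tissue, where colonocyte-like cells were lower than both (−0.64 ± 0.10 and −1.30 ± 0.11), and at 123 and 114, 142 and 142, and 147 and 177 in assembloids. Itga1 in tissue stood at 9.45 and 7.64, 17.5 and 15.4, and 30.6 and 33.6, and none of the 3 assembloid classes exceeded 3.89.

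In tissue Itgb1 stood at 106 and 114 in colonocyte-like, 123 and 122 in goblet-like and 135 and 130 in cycling cells, while in assembloids it stood at 422 and 357, 288 and 244, and 286 and 254. Its difference between colonocyte-like and goblet-like cells was −0.15 in tissue, with no call, and 0.55 ± 0.09 in assembloids. Without TMM scaling the tissue difference was called (−0.37, adjusted p = 0.0066). Against cycling cells of tissue Itgb1 was lower (−0.27, adjusted p = 0.019), a call lost without the library term (adjusted p = 0.23) and without tissue replicate 1 (−0.15, adjusted p = 0.51) or 2 (−0.30, adjusted p = 0.13). Itgb5 stood at 28.1 and 31.4, 6.52 and 9.35, and 9.60 and 14.5 in tissue (1.92 ± 0.18 against goblet-like) and at 18.4 and 17.0, 20.5 and 17.6, and 8.83 and 12.9 in assembloids (−0.05). Itgb6 kept the same order in both sources, at 49.9 and 46.6 in colonocyte-like against 14.1 and 13.0 in goblet-like cells of tissue (1.83) and at 56.9 and 40.2 against 14.4 and 24.7 in assembloids (1.16). Itgb4 stood at 79.8 and 68.7 against 45.3 and 47.6 in tissue (0.68), and its difference of 0.34 from cycling cells there (adjusted p = 0.032) turned to −0.27 without TMM scaling (adjusted p = 0.097). Itga3 stood at 47.0 and 45.6 in colonocyte-like, 26.9 and 34.6 in goblet-like and 28.0 and 30.2 in cycling cells of tissue, and at 67.8 and 46.6, 47.9 and 54.8, and 38.6 and 32.3 in assembloids. Its tissue difference from goblet-like cells (0.60, adjusted p = 0.0012) was lost without tissue replicate 1 (0.40, adjusted p = 0.145) and without the library term (adjusted p = 0.073), and those from cycling cells (0.67 in both sources) were lost without TMM scaling. Itgav stood in assembloids at 109 and 126, 90.4 and 116, and 71.4 and 89.1, against 20.5 and 21.2, 15.5 and 15.7, and 13.8 and 20.6 in tissue, so that every assembloid value lay above every tissue value. Itga7 stood at 19.2 and 12.5 in colonocyte-like cells of assembloids, above goblet-like (3.42 and 5.7, difference 1.67) and cycling cells (3.01 and 3.99, difference 2.17), and between 1.68 and 3.58 in the tissue classes. Median UMIs per cell were lower in assembloid replicate 1 (7444.5, 10764 and 5733 in colonocyte-like, goblet-like and cycling cells) than in tissue replicate 1 (18626, 18370 and 14101), and higher in assembloid replicate 2 (16732, 19935 and 14818) than in tissue replicate 2 (16248, 15937 and 10104).

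The difference between sources was itself tested. Between colonocyte-like and goblet-like cells 2 members (Itgb1 and Itga2) differed upwards in assembloids relative to tissue and 4 (Lama3, Lamb3, Itga5 and Itgb5) downwards, of 29 tested, where 17.6% of all genes differed, 7.77% upwards and 9.81% downwards. Without the library term the calls of Itgb1, Itga2, Itga5 and Lama3 were lost and 2 remained. Between colonocyte-like and cycling cells 5 differed upwards (Lamc1, Lamb3, Itga2, Itga6 and Itgb1) and none downwards, where 23.4% of all genes differed, 7.45% upwards and 15.9% downwards, and without the library term Lamb3 and Itgb1 were not called. Of the partners 15 were higher and 13 lower of 55 in colonocyte-like against goblet-like cells of tissue, and 11 and 7 in assembloids. Tns4, an adhesion adaptor, stood at 125 and 84.7 against 8.39 and 11.1 in tissue (3.44), and Nid1, the linker of laminin and collagen IV, at 48.7 and 25.6 against 1.37 and 2.17 in assembloids (4.07). Against cycling cells 16 partners were higher and 16 lower in tissue and 15 and 17 in assembloids, with Plec, the hemidesmosome linker, at 229 and 224 against 53.2 and 46.2 in tissue (2.17) and 247 and 228 against 59.2 and 62.4 in assembloids (1.97).

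**Figure D4:**
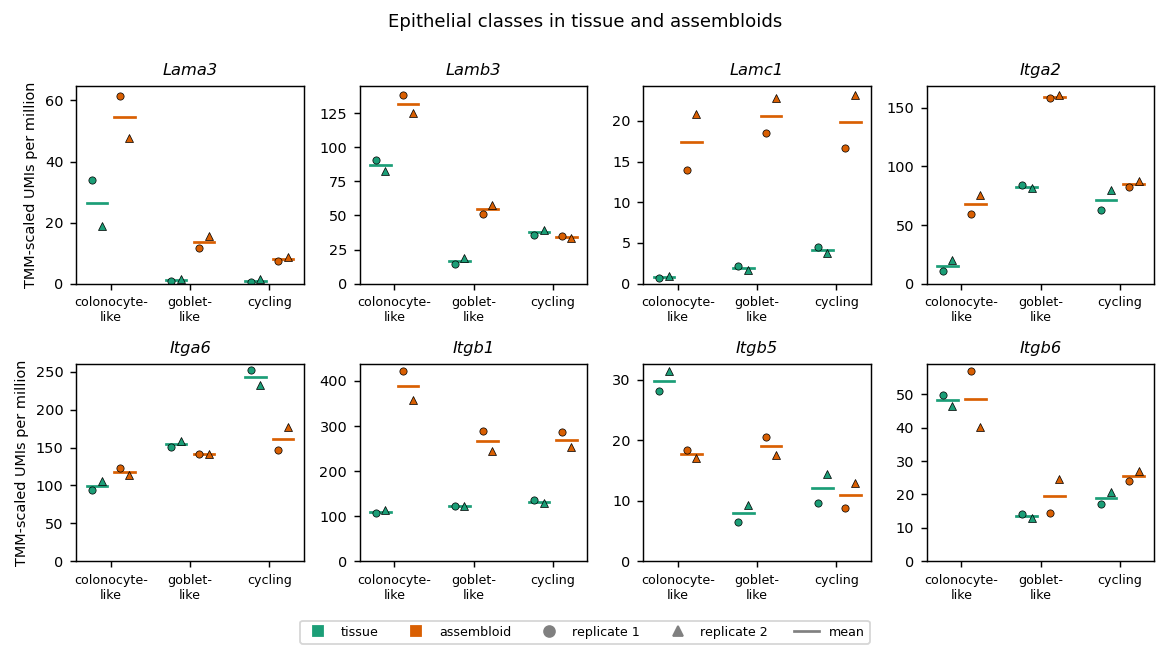
Levels of Lama3, Lamb3, Lamc1, Itga2, Itga6, Itgb1, Itgb5 and Itgb6 in colonocyte-like, goblet-like and cycling cells of tissue and assembloids (linear axis from 0, CPM after TMM scaling). Points are single libraries and lines are means. Itgb5 of tissue lay at 28.1 and 31.4 in colonocyte-like and 6.52 and 9.35 in goblet-like cells, and the assembloid values of these 2 classes overlapped.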

How the data were processed

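The authors sequenced 8 10x 3′ single-cell libraries and deposited UMI counts per gene and barcode from Cell Ranger. Per the labels this was version 6 with mm10, and the file headers name 6.0.1 for stroma and 7.1.0 for epithelium. Whether introns were counted is not given in the sources used here. The deposited counts were used as raw UMIs.

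Cells had at least 500 genes and at most 10% mitochondrial UMIs. Marker UMIs per 10000 were summed and at least 3 markers had to be detected. Epithelial-like cells had at least 30 epithelial and under 5 fibroblast and under 5 immune marker UMIs. Fibroblast-like and immune-like cells had at least 50 of their own, contractile-, endothelial-, glia- and neuron-like cells at least 10, telocyte-like cells 10, trophocyte-like cells 30, goblet-like cells 400, colonocyte-like cells 100 and cycling cells 15. Classes needed 20 cells per library. No doublet caller was run, and cells with markers of several classes were dropped only in part. Endothelial-, glia- and neuron-like cells could hold under 100 fibroblast marker UMIs per 10000, and contractile-like cells had no such ceiling. Leaving out the deepest 5% of cells was an alternative. UMIs were summed per library and class and tested with edgeR 4.0.16 (TMM, filterByExpr, quasi-likelihood, Benjamini-Hochberg adjusted p under 0.05), with the library as a term where classes of 1 library were compared. DESeq2 1.42.0 was an alternative. The replicates are 2 samples per group, stated by the study to be biological. On simulated counts, 87% of 200 genes changed 4-fold were recovered for assembloid against tissue epithelium, among 19032 genes, 79.5% for colonocyte-like against goblet-like cells in tissue, among 16448 genes, and 98.5% for telocyte-like against trophocyte-like cells, among 13318 genes.

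Values per library were meant for members with a mean of at least 10 CPM in any class compared, though not each of them is given for every class, and partners by at most the 3 highest and 3 lowest called. A few members below that level are named as well and were chosen after their values were seen. The members were taken by symbol, and they and the marker and partner lists were chosen as a subject with earlier results of these data known. Sequences were matched by symbol, and 24 of 38 members had an entry in the promoter table. Counts cover all members tested, and the values of 1 of them are not reported here.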

Additional observations from a re-analysis of the deposited data

Results flagged for a closer look

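A total of 11 differences between classes were themselves different between assembloids and tissue, by the interaction term of the edgeR fit, and are given as assembloids minus tissue. For colonocyte-like minus goblet-like cells, the laminin chains Lama3 (−2.70 ± 0.70, adjusted p = 0.015) and Lamb3 (−1.14 ± 0.17, adjusted p = 0.00029) and the integrin chains Itga5 (−1.88 ± 0.49, adjusted p = 0.016) and Itgb5 (−1.98 ± 0.29, adjusted p = 0.00029) had a smaller or opposite difference in assembloids. Itgb1 (0.71 ± 0.12, adjusted p = 0.00089) and Itga2 (1.26 ± 0.22, adjusted p = 0.0013) differed the other way. Without the replicate block, which is the library term, the calls of Itgb1 (adjusted p = 0.10), Itga2 (adjusted p = 0.11), Itga5 (adjusted p = 0.098) and Lama3 (adjusted p = 0.051) were lost, and Lama3 also lost its call under stricter gates (adjusted p = 0.12).

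For colonocyte-like minus cycling cells, Lamc1 (2.17 ± 0.34, adjusted p = 0.00042), Itga2 (1.90 ± 0.23, adjusted p = 4.8e-05), Itga6 (0.85 ± 0.15, adjusted p = 0.0009), Itgb1 (0.80 ± 0.12, adjusted p = 0.00029) and Lamb3 (0.72 ± 0.15, adjusted p = 0.0034) were shifted upwards in assembloids. For Lamc1, Itga2 and Itga6 colonocyte-like cells of tissue lay below cycling cells by more than those of assembloids did. Itga5 lost its call without assembloid replicate 1 (−1.72) or 2 (−2.16) or tissue replicate 2 (−1.34), Lama3 without tissue replicate 1 (−1.73) or assembloid replicate 2 (−2.20), and Lamc1 (1.75) and Itga6 (0.69) without tissue replicate 1. Without the replicate block the shifts of Lamb3 (adjusted p = 0.16) and Itgb1 (adjusted p = 0.055) from cycling cells were not called, and under stricter gates that of Lamc1 was not (1.63, adjusted p = 0.051).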

How the results depend on the processing

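Over 175 results, 2090 recomputed values gave 1875 with the same direction and, where a test could be run, the same side of the threshold, 110 that no longer passed it, 104 that moved and 1 reversed. The 175 results are calls of the main edgeR fit for members with a mean of at least 10 CPM. Calls gained under another setting, and calls of members below that level, lie outside the tally. It includes refits that left out a library of a group not compared. The reversed value was Itgb4 in tissue colonocyte-like against cycling cells, −0.27 without TMM factors. Counts of members called moved as follows. The share of all genes called under each setting is not given beside them, nor beside the counts without TMM scaling above. These counts therefore describe the settings and not a trait of the members. Contractile-like against fibroblast-like cells (2) gave 1 in DESeq2, 1 without TMM factors, 4 under stricter gates and 0 without the replicate block, which is the library term. Without that block, colonocyte-like against goblet-like cells of tissue fell from 14 to 9, the colonocyte-goblet difference between sources from 6 to 2 and the colonocyte-cycling difference from 5 to 3, which rose to 11 with up to 20% mitochondrial UMIs. Leaving out 1 library at a time gave 13 to 25 calls for assembloid against tissue (22), 9 to 16 for organoid against tissue (14), 17 to 25 for organoid against assembloid (25), 10 to 16 and 7 to 8 for colonocyte-like against goblet-like cells in tissue and assembloids, 8 to 15 and 15 to 19 against cycling cells, and 5 to 9 and 3 to 7 for the 2 differences. Tissue replicate 1 gave the lowest of these, 13, 9, 8 and 3. Without TMM factors assembloid against tissue gave 14 higher and 7 lower (median of all genes −0.37 instead of 0.03). The epithelial replicate numbers did not pair the samples (correlations of deviations 0.04, 0.15 and −0.12), and with a replicate block the first comparison gave 21 calls. Stricter gates left under 20 endothelial-like cells in stromal replicate 1 and under 20 glia-like cells in both libraries, and those comparisons were not run. Leaving out 1 of the 2 stromal libraries, or 1 assembloid library where epithelial-like cells were compared with fibroblast-like and immune-like cells, gave values with no test. In the other fits a group left with 1 library is assumed to vary like the other groups. Among the classes tested, 1 UMI weighed most in the glia-like sums (5.14 and 5.13 CPM) and the endothelial-like sum of replicate 1 (3.39 CPM).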

Other observations

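Lamc3, a rare laminin gamma chain below 10 CPM everywhere and chosen after its values were seen, stood at 5.57 and 1.59 in assembloid epithelial-like cells and 0.0366 and 0.165 in tissue. Its UMIs sat in few cells. In assembloid replicate 1, 189 of 18090 cells held 610 UMIs, and 37 cells with at least 3 held 72.8% of them. In replicate 2, 31 cells held 158 UMIs, and 8 of them held 84.2%. Before TMM scaling its epithelial-like level was 480.5% and 217% of the fibroblast-like level, so that fibroblast-like cells held less of it.

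Itga11 and Itga9 were concentrated in the same way, 56.9% and 87.0% of the Itga11 UMIs of assembloid epithelial-like cells lying in 31 and 18 cells and 72.7% and 66.2% of the Itga9 UMIs in 30 and 12 cells. The 955 UMIs of Lama4 in replicate 1 were spread over 846 cells, and 16 cells with at least 3 held 8.59%.

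Itga11 stood at 54.4 and 49.7 in fibroblast-like cells of the assembloid epithelial libraries and at 1.43 and 0.86 in those of the stromal libraries. These libraries were counted with different software versions and were not compared.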
